A study of Mus musculus with 46 samples.

Results

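Interferon-stimulated genes were followed through an LPS challenge of control and repopulated microglia, through microglial repopulation and through microglial depletion. The group held 52 genes, taken by symbol from a fixed list of known interferon targets and not by a cut on their values. The list was made with earlier results of these data known. All 52 were listed among the 15285 genes of the LPS experiment and among the 19930 genes of the GLOBAL repopulation experiment, and 44 were listed among the 15695 genes of the subventricular zone (SVZ) experiment. At 6 hr after LPS, 50 of the 52 had risen in control microglia, against 21.4% of all genes tested, and 49 of the 52 in the repopulated cells, against 19.3%, and no member's rise differed between the 2 origins beyond the test. No member passed the test after GLOBAL repopulation, where 0% of all genes did, nor after microglial depletion of the SVZ or in early recovery there, where 1.26% and 1.27% did, so that 0 called members is near what any genes gave.

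The study gave mice PLX3397, an inhibitor of the CSF1 receptor that microglia need to survive, and then withdrew it so that the brain filled with microglia again. All mice were C57BL/6 males, about 2 months old when the diet began. A diet with 600 ppm PLX3397 lasted 14 days for white matter (WM) repopulation, in which cells spread from the SVZ and white matter, and 7 days for GLOBAL repopulation, in which surviving cells divide throughout the brain. RNA was sequenced from CD11b+ CD45int cells, a sort for microglia-like myeloid cells, taken from whole hemispheres, or from micro-dissected SVZ tissue.

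In the LPS experiment, the control libraries came from mice on vehicle diet and the WM libraries from mice that had 14 days of PLX3397 and 28 days of recovery. Mice of both origins received 0.33 mg/kg LPS intraperitoneally 6 or 24 hr before collection, and the 0 hr mice received none. There were 3, 5 and 4 control libraries and 4, 4 and 4 WM libraries at 0, 6 and 24 hr. The GLOBAL experiment compared 4 vehicle libraries with 3 libraries taken 28 days after a 7 day diet. The SVZ experiment held 5 libraries each of vehicle, 14 day PLX3397 and 5 day recovery. The sort cannot separate resident microglia from other cells that carry the same surface levels. The study's methods give n as the number of mice in each group.

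Interferons are secreted proteins that warn cells of infection. Type I interferons bind IFNAR1 and IFNAR2, the kinases JAK1 and TYK2 are activated, and a factor that contains STAT2 and IRF9 binds the interferon-stimulated response element (ISRE), while the response to interferon gamma runs through the gamma-activated site (GAS). LPS is known to reach this pathway because its receptor TLR4 signals through TRIF to IRF3 and so to interferon beta. Microglia are known to express interferon-stimulated genes at a low level at rest and to raise them during infection and ageing.

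The promoters of several members are shown here because the ISRE is the element through which interferon-stimulated genes are known to be switched on, and because a pair of them behaved differently on nearly the same letters. RefSeq promoter windows of GRCm38.p6, from 250 bases before to 50 bases after the start, were at hand for 39 members. The ISRE core was searched as GAAANNGAAA, and the GAS as TTCNNNGAA, on both strands, and overlapping matches were allowed. Each stretch below is written 5′ to 3′ along the gene's strand with the match in capitals and at most 15 bases on either side. A match that lies on the other strand reads as TTTCNNTTTC.

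Isg15, which encodes the ubiquitin-like modifier, lies on the minus strand at chr4:156200866-156200905 and holds 3 overlapping matches, centred at -73, -67 and -61, of which the middle one is in capitals.
Isg15: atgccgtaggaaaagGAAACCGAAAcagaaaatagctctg
Rsad2, the antiviral protein viperin, lies on the minus strand at chr12:26456548-26456587 with the match centred at -115.
Rsad2: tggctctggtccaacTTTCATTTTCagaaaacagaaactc
Ifih1, the RNA sensor MDA5, lies on the minus strand at chr2:62646206-62646238 with the match centred at 37, after the start.
Ifih1: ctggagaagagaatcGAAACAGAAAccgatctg
Gbp2, a guanylate-binding protein, lies on the plus strand at chr3:142620589-142620628 with the match centred at -54.
Gbp2: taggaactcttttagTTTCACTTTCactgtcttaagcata
Igtp, an immunity-related GTPase, lies on the plus strand at chr11:58199507-58199546 with the match centred at -29.
Igtp: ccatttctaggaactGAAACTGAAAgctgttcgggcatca
Irgm2, a second GTPase of that family, lies on the plus strand at chr11:58214898-58214937 with the match centred at -59.
Irgm2: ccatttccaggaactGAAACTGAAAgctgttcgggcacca

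The ISRE core lay in the windows of 24 of the 39 members (61.5%) and of 3.99% of the 27025 genes of the promoter table. The GAS lay in 12 of 39 members (30.8%) and in 9.55% of all genes. By role, the ISRE core lay in 5 of 5 sensors with a window, 7 of 7 interferon-inducible GTPases, 1 of 1 signalling gene, 7 of 14 antiviral effectors, 2 of 4 genes of the ISG15 and ubiquitin group and 2 of 8 other members, and the difference between roles was not tested. A match describes the letters of a window and is not shown to be a binding site, and its absence says nothing of a factor bound elsewhere.

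In the LPS experiment the libraries held between 4.95 and 11.02 M reads (megareads) recovered from the FPKM values, against 5.53 to 10.8 M in the SVZ experiment and 2.32 to 6.19 M in the GLOBAL experiment. Control 6 hr replicate 2 and control 24 hr replicate 4 stood apart from their groups, with a correlation of log2 values to the rest of the group of 0.949 and 0.953. SVZ control replicate 1 stood apart in its table at 0.973. Calls of named members that were lost without them are given with the results. The sorted libraries carried all 8 microglial markers, and no marker gene of the list was at 0 in all of them.

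Before LPS the members spanned a wide range. FPKM (fragments scaled to transcript length and to the mapped reads of the library) is a level per length, so genes can be ranked by it. In control microglia 3 members had a mean above 100 FPKM: Ly6e, a membrane-anchored protein that affects viral entry, at 711 ± 23.7 (SD, n = 3), Ifitm3, which blocks viral fusion, at 147 ± 73.5, and Bst2, the tether that holds virions at the cell surface, at 142. Their order below Ly6e was not separable, since the Ifitm3 libraries ran from 96.8 to 231. The median member stood at 8.36 FPKM in control microglia and 10.4 FPKM in WM cells, and 4 and 2 members were under 1 FPKM.

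LPS raised nearly the whole group at 6 hr. In control microglia 50 of 52 members were higher at 6 hr than at 0 hr by limma at an adjusted p under 0.05, where 21.4% of the 12684 genes tested were higher. No member fell. The members' median difference was 2.19 on the log2(FPKM + 1) scale and that of all genes 0.01, and 44 of the called members rose by over 1. In WM cells 49 of 52 were higher, against 19.3% of all genes, with a median of 2.15. The summed FPKM of the members was 1571 to 1817 in the control 0 hr libraries and 4974 to 7696 at 6 hr, and 1924 to 2143 and 5904 to 8945 in WM cells.

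**Figure D1:**
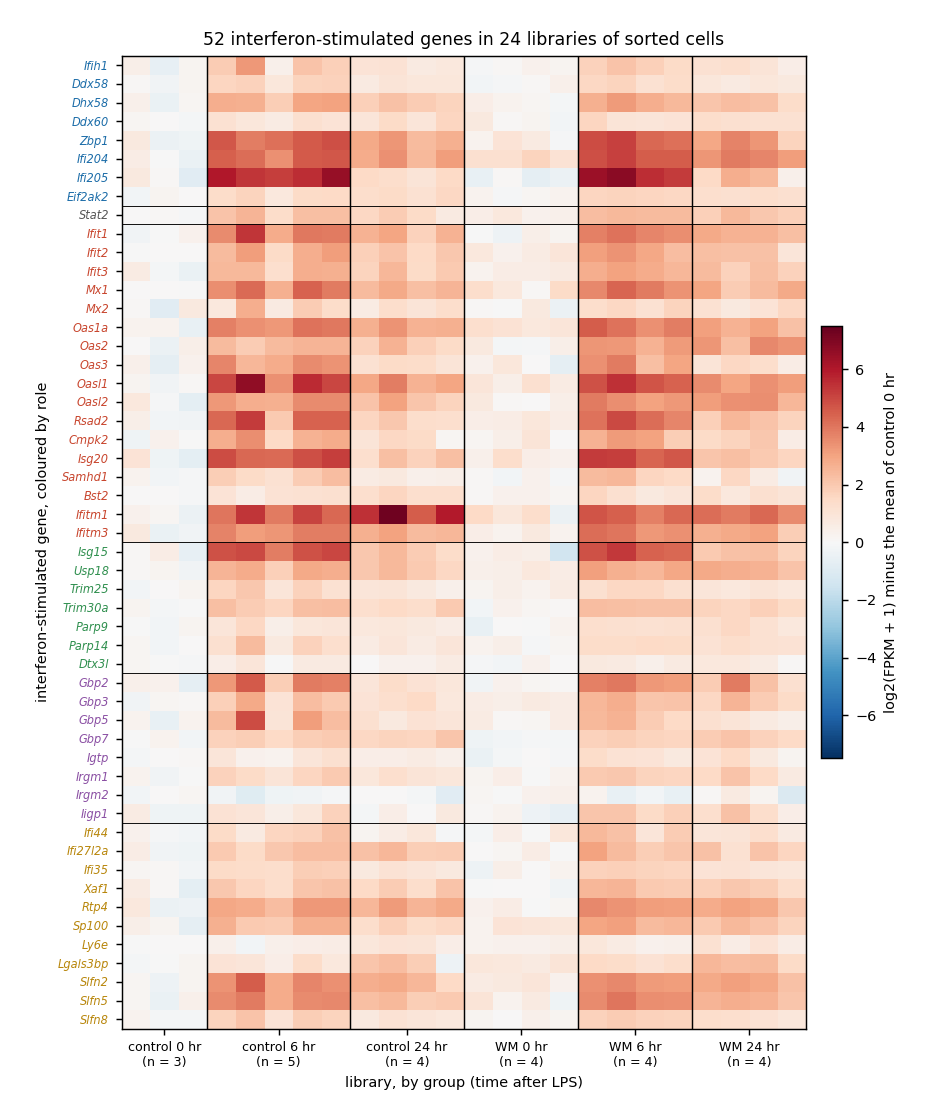
Heat map of the 52 members (vertical axis, ordered by role) across the 24 libraries of the LPS experiment (horizontal axis, by origin and time), coloured by log2(FPKM + 1) minus the mean of the control 0 hr libraries. The 6 hr libraries of both origins are the most strongly raised and the 24 hr libraries lie between them and 0 hr, while Irgm2 and Ly6e stay pale at 6 hr.

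All 8 sensors rose at 6 hr in both origins, with a median of 2.27 in control microglia and 2.10 in WM cells. Ifih1 was at 13.6, 6.00 and 11.6 FPKM in the control 0 hr libraries, at 39.2, 104, 13.4, 47.1 and 36.1 at 6 hr, and at 20.7, 22.4, 16.1 and 17.7 at 24 hr. In WM cells it was at 9.21, 10.4, 12.6 and 11.5 at 0 hr, at 34.7, 47.5, 36.5 and 28.6 at 6 hr, and at 23.4, 24.9, 20.7 and 14.3 at 24 hr. The 0 and 6 hr control groups overlapped through control 6 hr replicate 3 alone, and the WM groups did not overlap. Ifih1 rose by 1.90 ± 0.37 (SE) in control microglia (limma adjusted p = 0.000203) and by 1.65 ± 0.36 in WM cells (adjusted p = 0.000678).

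Zbp1, a sensor of Z-form nucleic acid that can start cell death, moved much further. Its control libraries were at 6.06, 2.08 and 2.38 FPKM at 0 hr, at 105, 58.1, 72.8, 101 and 117 at 6 hr, and at 28.8, 40.4, 21.1 and 25.8 at 24 hr. Its WM libraries were at 3.95, 7.47, 5.65 and 2.97, then at 124, 143, 82.0 and 73.7, and at 30.2, 53.5, 39.7 and 12.4. In neither origin did the 0 hr group overlap with a later one, and the rise at 6 hr was 4.41 ± 0.36 (adjusted p = 1.61e-09) in control microglia and 4.15 ± 0.35 (adjusted p = 3.14e-09) in WM cells.

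The widest rise among the sensors belonged to Ifi205, a member of the Ifi200 family of nuclear DNA-binding proteins. It climbed from 2.11 FPKM on average at 0 hr to between 100 and 267 FPKM in the control 6 hr libraries, and from 1.22 to between 106 and 306 FPKM in WM cells. The difference was 5.72 ± 0.43 and 6.36 ± 0.42, the largest of the 52 in both origins. Its relative Ifi204 rose by 4.26 ± 0.27 in control microglia, from 4.82 ± 2.17 to 111 ± 33.1 FPKM (SD, n = 3 and 5). Genes of the Ifi200, Ifit, Oas, Gbp, Irg and Slfn families have close relatives in the genome, and reads could be split between them in counting.

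The RIG-I gene Ddx58 and its partner Dhx58 (LGP2) rose less. Ddx58 went from 8.65 ± 1.48 to 27.0 ± 6.31 FPKM in control microglia and from 8.98 ± 1.93 to 25.1 ± 4.19 in WM cells. Dhx58 went from 8.42 ± 2.68 to 58.1 ± 16.3 and from 9.68 ± 1.96 to 62.1 ± 15.6. Eif2ak2, the kinase PKR that halts translation on double-stranded RNA, was at 9.86 ± 1.57 FPKM in control microglia at 0 hr and still as high at 24 hr (26.9 ± 3.57) as at 6 hr (27.0 ± 5.74).

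Stat2, the signalling member, is part of the factor that binds the ISRE. It was at 7.75, 8.03 and 7.23 FPKM in control microglia at 0 hr, at 36.6, 49.5, 21.7, 39.7 and 40.1 at 6 hr, and at 24.4, 30.9, 22.7 and 12.6 at 24 hr. Among WM libraries it was at 11.5, 14.1, 9.85 and 10.1, then at 42, 45.0, 44.3 and 43.1, and at 28.5, 46.6, 34.3 and 28.6. Every library after LPS exceeded every 0 hr library of its own origin, and the rise at 6 hr was 2.10 ± 0.23 (adjusted p = 1.21e-07) and 1.86 ± 0.22 (adjusted p = 5.79e-07).

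All 17 antiviral effectors rose at 6 hr in both origins, and their medians, 3.18 and 2.94, were the highest of the roles with more than 1 member. Ifit3, which stabilises the RNA-binding protein IFIT1, stood at 16, 9.09 and 6.71 FPKM in control microglia at 0 hr and at 57.0, 57.3, 24.8, 70.5 and 69.0 at 6 hr. Its WM libraries stood at 12.1, 14.9, 15.4 and 16.4 and then at 70.6, 88.8, 75.1 and 60.7. The groups did not overlap, and the 24 hr libraries, at 28.8 to 59.8 and 34.7 to 55.3, remained above 0 hr. Ifit1 itself rose from 3.01 ± 0.83 to 70.4 ± 53.1 FPKM in control microglia, where replicate 2 alone reached 162.

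Mx1, a dynamin-like GTPase that traps viral nucleocapsids, was at 1.71, 1.72 and 1.68 FPKM in control microglia at 0 hr, at 29.4, 50.3, 16.4, 56.7 and 39.3 at 6 hr, and at 13.3, 18.1, 11.9 and 14.5 at 24 hr. Its WM libraries began at 5.73, 3.70, 1.91 and 6.42, reached 31.7, 54.6, 39.1 and 27.0 at 6 hr, and were at 19.8, 8.97, 13.2 and 18.7 at 24 hr. All WM 0 hr libraries were above all control 0 hr libraries, and the levels at 6 hr overlapped widely. The rise at 6 hr was 3.75 ± 0.33 in control microglia and 2.89 ± 0.32 in WM cells.

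Oasl2, a relative of the 2-5A synthetases that feeds RNA sensing, was at 11.8, 5.93 and 3.53 FPKM in control microglia at 0 hr, at 70.1, 48.6, 45.9, 85.9 and 86.5 at 6 hr, and at 31.6, 58.1, 30.3 and 22.1 at 24 hr. WM cells were at 11.1, 6.87, 6.51 and 8.84, at 109.5, 82.1, 58.8 and 69.1, and at 63.2, 78.1, 81.2 and 41.1. The 6 and 24 hr groups overlapped in both origins, and the control difference between them was -0.94 ± 0.29 (adjusted p = 0.0176). Without control 24 hr replicate 4, which stood apart, it was -0.75 and missed the threshold (adjusted p = 0.0769). Oasl1, its paralogue, showed the second-largest rise in control microglia at 5.14 ± 0.42.

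Rsad2 rose steeply by 6 hr and was lower again at 24 hr. The control libraries were at 2.36, 1.15 and 0.988 FPKM at 0 hr, at 47.5, 89.5, 8.36, 52 and 50.8 at 6 hr, and at 6.39, 8.93, 4.97 and 4.80 at 24 hr. The WM libraries were at 2.36, 2.55, 3.39 and 2.58, at 39.7, 75.4, 43.1 and 29.2, and at 7.36, 12.8, 9.51 and 6.61. In control microglia, 6 hr replicate 3 at 8.36 was the only 6 hr library within the 24 hr range. The fall from 6 to 24 hr was -2.52 ± 0.41 (adjusted p = 6.63e-05) in control microglia and -2.20 ± 0.43 (adjusted p = 0.00101) in WM cells. Cmpk2, its neighbour on chromosome 12 and a mitochondrial nucleotide kinase, went from 2.64 ± 0.779 to 23 ± 10.4 and back to 6.90 ± 3.02 FPKM in control microglia.

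Bst2 and Ifitm3, already high at rest, differed in how far they moved. Bst2 was at 145, 147 and 133 FPKM in control microglia at 0 hr, at 284, 211, 305, 316 and 330 at 6 hr, and at 338, 436, 335 and 341 at 24 hr, so that all 24 hr libraries were above all 6 hr libraries. In WM cells it was at 154, 176, 174 and 157, at 435, 331, 239.9 and 272, and at 370, 247, 331 and 281. Bst2 rose by 1.01 ± 0.17 at 6 hr and 1.34 ± 0.18 at 24 hr in control microglia, and the step between them did not pass (adjusted p = 0.12).

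Ifitm3 had the highest mean level per length of the 52 members at 6 hr. Its control libraries were at 231, 96.8 and 113 FPKM at 0 hr, at 1792, 1207, 1346, 1979 and 1979 at 6 hr, and at 878, 1099, 700 and 784 at 24 hr. Its WM libraries were at 190, 162, 226 and 163, at 2480, 2222, 1293 and 1465, and at 876, 1003, 1113 and 497. The 3 times did not overlap within either origin, and the rise at 6 hr was 3.57 ± 0.28 and 3.29 ± 0.27. Isg20, a 3′ to 5′ exonuclease that degrades viral RNA, rose from 7.35 ± 5.58 to 193 ± 54.0 FPKM in control microglia and from 10.9 ± 4.25 to 217 ± 61.5 in WM cells, and Samhd1, which depletes nucleotides, rose from 29.1 ± 4.91 to 103 ± 32.1 and from 29.6 ± 4.65 to 123 ± 43. Oas1a, a 2-5A synthetase, rose from 4.2 ± 1.49 to 66.0 ± 15.2 and from 9.31 ± 1.56 to 80.8 ± 27.3.

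**Figure D2:**
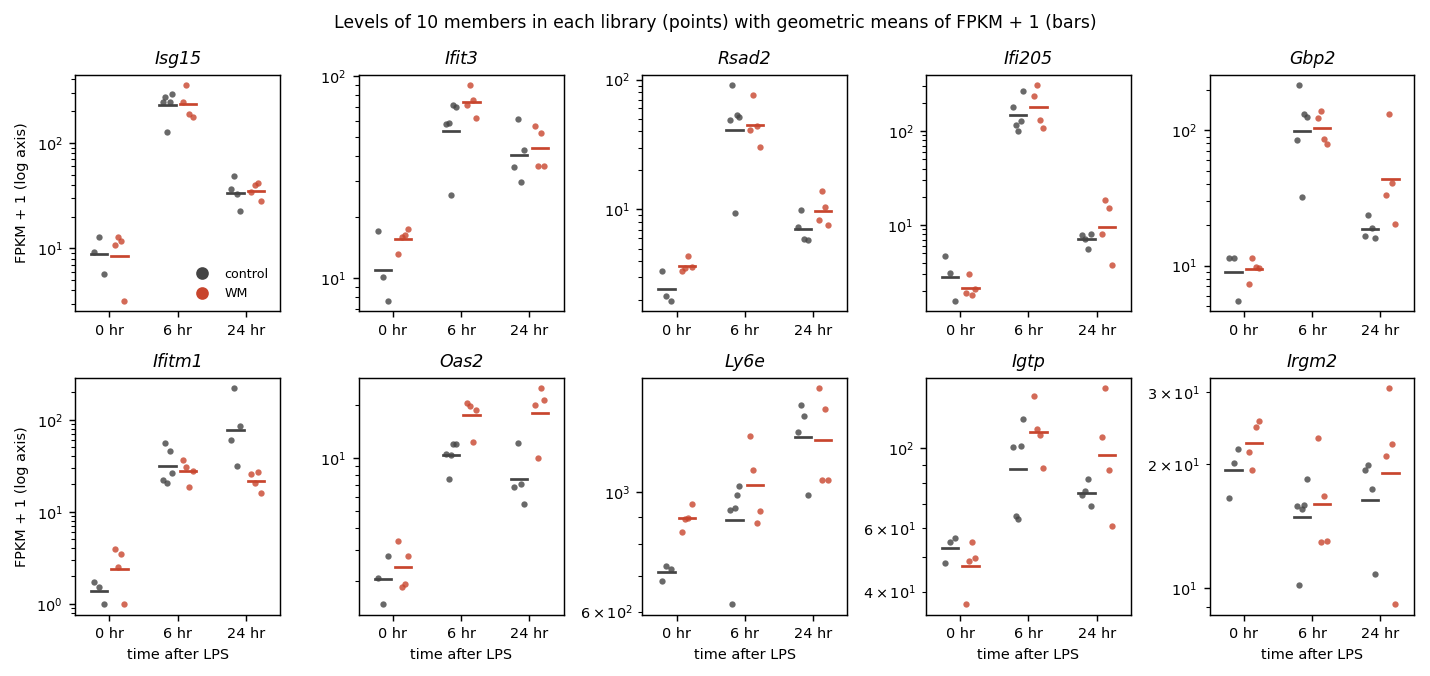
FPKM + 1 on a log axis (vertical) against time after LPS (horizontal) for Isg15, Ifit3, Rsad2, Ifi205, Gbp2, Ifitm1, Oas2, Ly6e, Igtp and Irgm2, with 1 point for each library, control in grey and WM in red, and bars at geometric means. Points of Ifi205 and Isg15 at 6 hr lie far above 0 hr in both origins, those of Irgm2 overlap with 0 hr, and the control points of Ifitm1 at 24 hr lie above the WM points.

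The ISG15 and ubiquitin genes rose in 7 of 7 cases in both origins, at medians of 1.49 and 1.26. Isg15 itself was at 8.27, 11.9 and 4.74 FPKM in control microglia at 0 hr, at 244, 270, 127, 242 and 287 at 6 hr, and at 35.3, 47.4, 31.6 and 21.9 at 24 hr. Its WM libraries were at 9.86, 11.7, 10.9 and 2.21, at 244, 351, 188 and 177, and at 33.0, 38.9, 40.6 and 26.9. The 3 times were fully separate in each origin and the 2 origins overlapped at each time. Isg15 rose by 4.68 ± 0.37 (adjusted p = 7.75e-10) and 4.77 ± 0.35 (adjusted p = 5.07e-10).

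Usp18, the protease that strips ISG15 from its targets and dampens signalling at IFNAR2, overlapped between 6 and 24 hr in control microglia. It was at 12.6, 13.6 and 9.50 FPKM in control microglia at 0 hr, at 74.5, 87.2, 43, 89.6 and 84.6 at 6 hr, and at 51.2, 67.9, 48.7 and 36.1 at 24 hr. WM cells were at 15.8, 16.4, 20.7 and 17.9, at 108, 81.5, 70.5 and 94.5, and at 92.2, 83.1, 77.1 and 54.5, with the 6 and 24 hr groups overlapping. Trim25, the ligase that activates RIG-I, was at 5.16, 6.37 and 7.25, at 21, 28.8, 12.7, 22.6 and 15.1, and at 12.6, 13.2, 11.2 and 8.30 FPKM in control microglia. Its WM libraries were at 7.41, 8.62, 7.69 and 9.90, at 15.9, 20.3, 19.8 and 15.8, and at 12.6, 11.5, 13.3 and 11.3. Parp14, a mono-ADP-ribosyltransferase, went from 5.93 ± 0.854 to 19.6 ± 9.38 FPKM in control microglia. The genes Parp9 and Dtx3l overlap at chr16:35938470-35939027 on GRCm38.p6, and reads from the overlap cannot be given to either.

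Of the 8 interferon-inducible GTPases, which attack the membranes of vacuoles that hold microbes, 7 rose at 6 hr in each origin. Gbp2 was at 10.4, 10.4 and 4.51 FPKM in control microglia at 0 hr, at 83.5, 214, 31.0, 131 and 124 at 6 hr, and at 15.5, 22.6, 17.9 and 15.1 at 24 hr. Among WM libraries it was at 6.35, 10.3, 8.74 and 8.52, at 122, 139, 85.3 and 78.6, and at 32.5, 131, 40.1 and 19.4. The 6 hr groups were clear of 0 hr in both origins, and WM 24 hr replicate 2 stayed at the 6 hr level. The rise was 3.47 ± 0.48 in control microglia and 3.47 ± 0.46 in WM cells. Gbp5, which promotes inflammasome assembly, was at 31.2 ± 35.5 FPKM in control microglia at 6 hr, where replicate 2 was at 93.2 and the other libraries at 5.28 to 27.4.

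Irgm1, a regulator of the GTPase family and of autophagy, was at 44.3, 29.7 and 36.1 FPKM at 0 hr, at 120, 101, 72.5, 112 and 142 at 6 hr, and at 67.4, 89.3, 70.5 and 67.3 at 24 hr in control microglia. In WM cells it was at 41.3, 51.7, 34.9 and 42.9, at 146, 152, 117 and 112, and at 102, 164, 105 and 57.9. Its rise at 6 hr was 1.54 ± 0.24 and 1.61 ± 0.23, with no overlap with 0 hr. Iigp1, an effector GTPase, was low throughout, at 2.47, 0.836 and 0.847 FPKM in control microglia at 0 hr and at 3.73, 3.25, 2.11, 3.07 and 6.47 at 6 hr, and at 1.39, 1.77, 0.780 and 0.492 and then at 8.44, 8.44, 5.21 and 7 in WM cells. By 24 hr it was at 1.03, 2.28, 1.28 and 2.72 in control microglia and at 4.50, 9.53, 4.58 and 2.19 in WM cells. Its rise at 6 hr was 0.99 ± 0.33 (adjusted p = 0.0169) and 1.99 ± 0.32 (adjusted p = 2.42e-05). Without control 0 hr replicate 2 or 3, the control rise no longer passed, at 0.84 each time (adjusted p = 0.087 and 0.0841).

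The pair of promoters printed above belongs to genes that parted. Igtp was at 47.1, 53.8 and 55.3 FPKM in control microglia at 0 hr, at 99.5, 63.9, 62.8, 100 and 119 at 6 hr, and at 73.1, 74.9, 81.1 and 68.0 at 24 hr. Among WM libraries it was at 36.0, 47.5, 53.9 and 48.4, at 138, 112, 108 and 87.0, and at 107, 145, 86.1 and 59.6. Igtp rose by 0.72 ± 0.23 (adjusted p = 0.0129) and 1.24 ± 0.22 (adjusted p = 8.92e-05) at 6 hr, and without control 0 hr replicate 1 the control rise was 0.65 (adjusted p = 0.0562).

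Irgm2, picked out after its values were seen, was at 15.5, 19.1 and 20.8 FPKM at 0 hr and at 14.8, 9.18, 14.6, 14.9 and 17.4 at 6 hr in control microglia. In WM cells it was at 20.4, 18.3, 23.6 and 24.5 and then at 22.1, 11.9, 15.7 and 12. Its difference at 6 hr was -0.38 (95% interval -0.97 to 0.21, adjusted p = 0.305) and -0.50 (-1.07 to 0.07, adjusted p = 0.162). Its 40-base stretch shares 38 of 40 bases with that of Igtp, the ISRE core included.

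The last 11 members, of mixed or less defined function, rose in 10 cases in control microglia and 9 in WM cells. Ifi27l2a, a small interferon-induced protein, was at 83.6, 48.0 and 46.1 FPKM in control microglia at 0 hr, at 227, 157, 234, 289 and 286 at 6 hr, and at 263, 319, 206 and 214 at 24 hr. Its WM libraries were at 58.6, 63.6, 86.0 and 56.3, at 473, 298, 210 and 239, and at 261, 128, 256 and 175. Both later times were clear of 0 hr, and they overlapped with each other. Slfn5, a Schlafen family member, rose from 0.845 ± 0.528 to 19.4 ± 5.13 FPKM in control microglia and from 1.48 ± 0.891 to 21.2 ± 4.46 in WM cells, and Ifi44 from 0.255 ± 0.270 to 2.78 ± 1.36 and from 0.590 ± 0.512 to 3.81 ± 1.87.

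Ly6e did not pass at 6 hr in either origin. It was at 711 ± 23.7 FPKM at 0 hr, 899 ± 162 at 6 hr and 1281 ± 204 at 24 hr in control microglia, and at 895 ± 44.0, 1042 ± 180 and 1273 ± 261 in WM cells. It was called at 24 hr, by 0.83 ± 0.18 in control microglia (adjusted p = 0.00181) and by 0.49 ± 0.17 in WM cells (adjusted p = 0.0435). Lgals3bp, a secreted glycoprotein that binds galectin 3, also had its higher level late, at 41.8 ± 4.80, 81.7 ± 17.9 and 144 ± 78.0 FPKM in control microglia and at 74.9 ± 6.37, 107 ± 12.6 and 195 ± 55.9 in WM cells. Its 6 hr rise in control microglia lay at the edge of the threshold (0.93 ± 0.38, adjusted p = 0.0496) and was not called when any of 7 libraries was left out. Nor was that rise called with a pseudocount of 0.1 (adjusted p = 0.0515), no filter (0.0612), quantile normalization (0.0603) or no trend (0.0563). The 24 hr difference of Ly6e in WM cells was not called when any of 6 libraries was left out, nor with the replicate block (adjusted p = 0.0511), quantile normalization (0.104), no filter on low values (0.0606), no trend (0.0522) or limma-voom (0.0506).

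Nearly all members with a promoter window rose at 6 hr, so that the members cannot show whether the ISRE core goes with a rise. In control microglia 23 of 24 members with the core and 15 of 15 without it were higher at 6 hr, with medians of 2.08 and 2.37. Among genes that are not members, 33.1% of 356 with the core and 20.6% of 9367 without it were higher, with medians of 0.19 and 0.00. In WM cells the members' counts were 23 of 24 and 14 of 15, and the shares of other genes 31.2% and 18.5%.

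The libraries of a group did not respond to the same degree. Control 6 hr replicate 3 held the lowest value of its group in 43 of 52 members, while it held the lowest in 23.7% of all tested genes. WM 24 hr replicate 4 held the lowest value in 41 of 52 members, against 34.0% of all genes, and control 24 hr replicate 2 the highest in 38 of 52, against 21.1%. Control 6 hr replicate 2, which stood apart over all genes, held the highest value in 19 members and the lowest in 9. With control 6 hr replicate 2 and control 24 hr replicate 4 both left out, 51 members were higher in control microglia at 6 hr and 42 at 24 hr.

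Markers of other cell types moved at 6 hr in both directions. The summed FPKM of 6 monocyte markers (Ccr2, Ly6c2, Plac8, Chil3, F13a1 and Vcan) was 113 to 348 in control microglia at 0 hr, 1185 to 2337 at 6 hr and 443 to 570 at 24 hr, and 136 to 419, 1189 to 3260 and 133 to 669 in WM cells, with 5 of the 6 called higher at 6 hr in each origin. The summed 8 neutrophil markers were at 1836 to 8940, 903 to 5777 and 6400 to 15307 in control microglia and at 2902 to 10912, 435 to 10255 and 3189 to 7209 in WM cells, with 1 and 6 of 8 called lower at 6 hr. Lymphocyte sums were 9.45 to 34.4 at 0 hr and 46.8 to 209 at 6 hr in control microglia and 35.6 to 58.0 and 70.4 to 188 in WM cells, with 1 of 5 tested called higher in each origin and 1 called lower in WM cells. Border macrophage sums were 39.0 to 136 at 0 hr and 13.3 to 26.3 at 6 hr in control microglia, with 4 of 5 tested called lower, and 22.1 to 46.7 and 10.3 to 13.9 in WM cells, with 2 called lower. The 8 microglial markers fell from 23434 to 27594 at 0 hr to 11237 to 12867 at 6 hr in control microglia and from 24746 to 29313 to 12437 to 14834 in WM cells. Oligodendrocyte sums were 31.5 to 38.7 at 0 hr and 18.8 to 29.1 at 6 hr in control microglia, with 1 of 3 tested called lower. They overlapped in WM cells. Endothelial sums were 2.74 to 5.38 and 5.68 to 7.62 in WM cells, with 0 of 2 tested called, and overlapped in control microglia. Of 4 astrocyte markers tested, 1 was called higher in control microglia and 0 in WM cells. The part of these markers in the rise of the members was not tested.

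**Figure D3:**
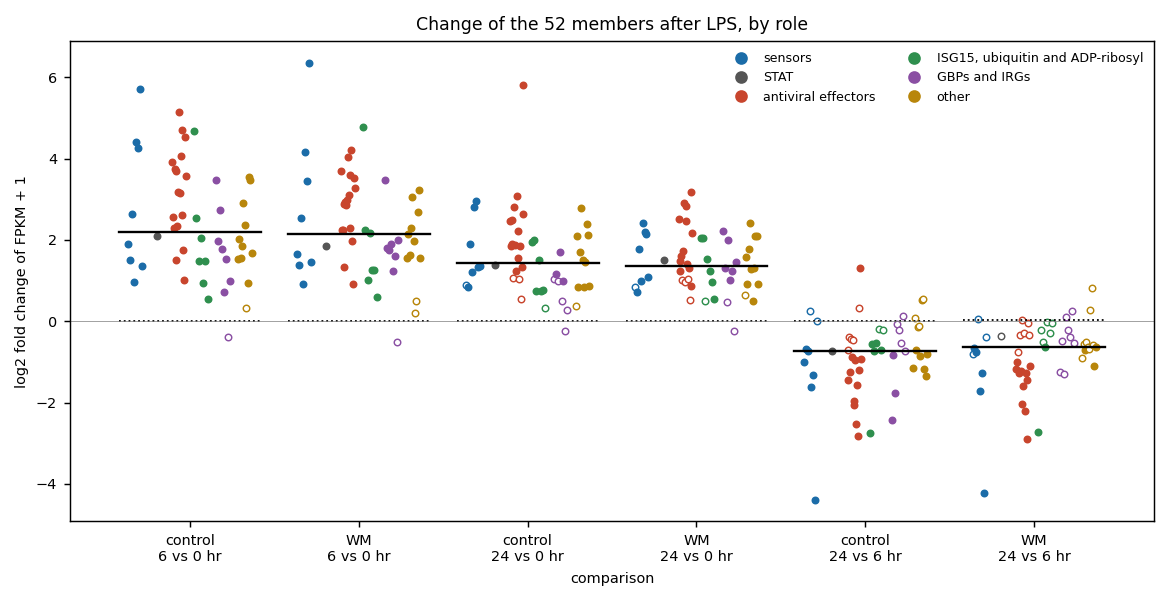
Log2 difference of FPKM + 1 (vertical axis) of each member for 6 comparisons of times in the LPS experiment (horizontal axis), coloured by role, with filled points at an adjusted p under 0.05. Solid lines mark the members' median and dotted lines that of all tested genes. Most members lie above the dotted line at 6 and 24 hr against 0 hr, and most lie below it at 24 against 6 hr.

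By 24 hr the group had partly come back. In control microglia 41 of 52 members were still higher than at 0 hr, against 12.1% of all genes, at a median of 1.43. From 6 to 24 hr, 32 members were lower, against 13.3% of all genes, and 2 were higher, Ifitm1 and Ly6e, against 15%. Ly6e stood 0.52 higher (adjusted p = 0.017), and it missed the threshold without control 6 hr replicate 2, which stood apart (0.39, adjusted p = 0.0523), without control 24 hr replicate 2 or 3, and with only the groups compared. Ifitm1 missed it without control 24 hr replicate 4 (1.25, adjusted p = 0.0598). Several other calls in control microglia lay near the threshold. The 6 to 24 hr difference of Usp18 (-0.55, adjusted p = 0.0458) was lost with no filter, quantile normalization, no trend, the replicate block (adjusted p = 0.0823) or only the groups compared, and without most single libraries of either group. Those of Ifih1, Stat2 and Dhx58 were lost without control 24 hr replicate 4, that of Ifih1 also without control 6 hr replicate 2 or 4 or control 24 hr replicate 3, that of Dhx58 also without control 6 hr replicate 4 or 5, and those of Ifih1 and Stat2 also with only the groups compared. At 24 hr over 0 hr, Ifi205 (1.33, adjusted p = 0.0363) was lost without control 0 hr replicate 2 or 3 (0.91 without replicate 3), without control 24 hr replicate 1, 2 or 4, and by limma-voom (adjusted p = 0.187). Parp14 was lost there without control 0 hr replicate 2 or 3 or control 24 hr replicate 2 or 4. Rsad2 was lost there without control 0 hr replicate 2 or 3 or control 24 hr replicate 2, and by limma-voom (adjusted p = 0.0989). Without both libraries that stood apart, 29 members were called between 6 and 24 hr. In WM cells 43 of 52 were higher at 24 hr than at 0 hr, against 10.5% of all genes, at a median of 1.36, and 21 were lower than at 6 hr, against 7.5%. The Rsad2 call over 0 hr was lost without WM 0 hr replicate 1, 2 or 4 or WM 24 hr replicate 2 or 3. Limma-voom lost it too (adjusted p = 0.0659). From 6 to 24 hr, Dhx58 was lost without WM 6 hr replicate 1, 2 or 3 or WM 24 hr replicate 1 or 4. Cmpk2 was lost there without WM 6 hr replicate 2 or 3 or WM 24 hr replicate 4. Ifit1 was lost without WM 6 hr replicate 2 or WM 24 hr replicate 4, and Ddx58 without WM 6 hr replicate 2. Taken over the members called at 6 hr, the 24 hr difference was at a median of 65.2% of the 6 hr difference on the log2 scale in control microglia (23.3% to 158%) and 66.5% in WM cells (26.7% to 106%). Markers of other cell types also moved between 6 and 24 hr in control microglia, where 5 of 6 monocyte markers were called lower and 5 of 8 microglial, 4 of 8 neutrophil and 3 of 5 tested border macrophage markers higher. In WM cells 5 of 6 monocyte markers were called lower and 3 of 8 microglial and 1 of 8 neutrophil markers higher, and the part of these markers in the members' fall was not tested.

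The members that came down furthest were named by the size of their fall. Ifi205 fell by 4.38 ± 0.39 from 6 to 24 hr in control microglia (adjusted p = 5.85e-08) and by 4.21 ± 0.42 in WM cells (adjusted p = 3.80e-07). Isg20, Isg15 and Rsad2 followed in both origins. Isg20 fell by 2.83 ± 0.30 and 2.90 ± 0.31, and Isg15 by 2.74 ± 0.34 and 2.71 ± 0.35. In control microglia, 5 of the 8 GTPases were not called above 0 hr at 24 hr, Gbp2 among them (1.05 ± 0.50, adjusted p = 0.141), and 3 fell between 6 and 24 hr. In WM cells 6 of 8 were called above 0 hr and 0 lower than at 6 hr. The shares of all genes called higher than at 0 hr were 12.1% and 10.5%, and lower than at 6 hr 13.3% and 7.5%. For 0 of the 8 GTPases was the 24 hr response called different between origins, so the counts do not show a difference.

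The largest difference from 0 hr at 24 hr, though not the highest level, was that of Ifitm1 in both origins. Ifitm1 is a fusion-blocking membrane protein related to Ifitm3. It began near the floor, with 4, 3 and 0 reads in the control 0 hr libraries. It was at 0.709, 0.519 and 0 FPKM in control microglia at 0 hr, at 20.9, 55.2, 19.5, 45.0 and 25.7 at 6 hr, and at 59.8, 217, 30.4 and 85.2 at 24 hr. Among WM libraries it was at 2.91, 1.51, 2.45 and 0, at 35.9, 29.6, 17.7 and 26.5, and at 24.4, 19.7, 25.8 and 15. All control 24 hr libraries were above all WM 24 hr libraries. Ifitm1 was 5.82 ± 0.49 above 0 hr in control microglia at 24 hr and 3.18 ± 0.45 in WM cells. Its step from 6 to 24 hr in control microglia was 1.3 ± 0.43 (adjusted p = 0.0259) and was not called without control 24 hr replicate 2 (0.80, adjusted p = 0.152), nor without control 6 hr replicate 1 or 3 or control 24 hr replicate 4, with a pseudocount of 0.1 (adjusted p = 0.198) or with only the groups compared (0.0822). Oasl1, Ifi204 and Oas1a were next in control microglia at 24 hr, at 3.08, 2.95 and 2.82, and Oas2, Oasl2 and Ifit1 in WM cells, at 2.90, 2.82 and 2.5.

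Repopulated and control cells were next compared at each time, to ask whether cells of WM origin hold or mount a different interferon state. At 0 hr 1 of 52 members was called higher in WM cells, against 0.717% of all genes. It was Ifi204, at 11.6, 12, 16.8 and 11 FPKM in WM cells and 7.19, 4.36 and 2.92 in control microglia, with no overlap and a difference of 1.3 ± 0.28 (adjusted p = 0.0202). Without control 0 hr replicate 2, control 0 hr replicate 3 or WM 0 hr replicate 3 it did not pass (adjusted p = 0.0783, 0.123 and 0.0735), nor by limma-voom on recovered reads (1.43, adjusted p = 0.154). Oas1a followed with 1.02 ± 0.27 (adjusted p = 0.06).

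Most members lay slightly higher in WM cells before LPS without passing. The difference was above 0 for 45 of 52, at a median of 0.23 against 0.01 for all genes, and 14 members had all 4 WM libraries above all 3 control libraries, Mx1, Stat2 and Usp18 among them, as had 7.61% of all genes. An unadjusted p under 0.05 was found for 8 members, and for 11.9% of all genes, and by limma-voom for 3 members and 12% of all genes. The 95% interval of the difference lay within 1 log2 unit of 0 for 30 of the 52. Among the marker lists, 6 of 7 lymphocyte markers were listed, with sums of 35.6 to 58.0 FPKM in WM cells against 9.45 to 34.4 and 1 of 5 tested called higher. The sums of 3 lists lay lower in WM cells without overlap, those of endothelium (2.74 to 5.38 against 8.51 to 13.2, 1 of 2 tested called lower), astrocytes (36.0 to 49.9 against 53.1 to 56.8, 0 called) and oligodendrocytes (28.1 to 31.3 against 31.5 to 38.7, 0 called). Border macrophage markers overlapped, at 22.1 to 46.7 against 39.0 to 136, with a median difference of -1.09 and 0 called, and the sums of microglia, monocytes and neutrophils overlapped. The part of these markers in the difference was not tested.

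At 6 hr no member was called between origins by limma, against 0.323% of all genes in either direction, and 2 members had an unadjusted p under 0.05, as had 9.18% of all genes. Limma-voom on recovered reads gave 5 members, against 8.74% of all genes, and called 0 members. The interval lay within 1 log2 unit for 43 of 52 members. At 24 hr 2 members were called. Oas2, a 2-5A synthetase, was higher in WM cells, against 1.68% of all genes, at 18.9, 8.92, 23.8 and 20.3 FPKM against 5.80, 11.2, 6.12 and 4.49 in control microglia, a difference of 1.25 ± 0.28 (adjusted p = 0.0127). The groups overlapped between WM replicate 2 and control replicate 2, and without WM 24 hr replicate 3 the adjusted p was 0.0528. Ifitm1 was lower, against 2.29% of all genes, with a difference of -1.83 ± 0.45 (adjusted p = 0.0217) and no overlap. Without control 24 hr replicate 2 its difference was -1.33 (adjusted p = 0.0882), and it also missed the threshold without control 24 hr replicate 4 or WM 24 hr replicate 2 or 4, with a pseudocount of 0.1 (adjusted p = 0.217) and with only the groups compared (0.068). Oas2 was also lost with only the groups compared (adjusted p = 0.0631). Iigp1 was at 1.05 ± 0.32 (adjusted p = 0.0621). Marker sums also differed at 24 hr: border macrophage markers were at 12.7 to 29.4 FPKM in WM cells against 45.7 to 52.9, with 1 of 5 tested called lower, and endothelial markers at 1.75 to 7.82 against 7.99 to 12.8, with 1 of 2 called lower. Neuroblast markers, 3 of 5 listed, were low at 1.35 to 1.95 against 3.52 to 7.09, with 0 of 1 tested called. Neutrophil markers had a median difference of -1.18 with 0 of 8 called, and the part of these lists in the 24 hr differences was not tested.

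The test of the LPS response itself between origins, the interaction of origin and time, called no member at 6 hr, against 0.0237% of all genes, and none at 24 hr, against 0.0867%. By limma 4 members at each time had an unadjusted p under 0.05, as had 7.2% of all genes at 6 hr and 8.71% at 24 hr. Limma-voom gave 1 and 2 members, with 0 members called. The widest gap was that of Ifitm1 at 24 hr, -2.64 ± 0.67 (adjusted p = 0.128). The intervals of the interaction lay within 1 log2 unit of 0 for 23 and 22 of the 52 members, and reached past it for the rest.

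No difference of a member passed the test after GLOBAL repopulation. None of 52 was called by limma, where 0% of the 16651 genes tested were called. At an unadjusted p under 0.05 there were 9, of which 7 were higher and 2 lower, against 9.03% of all genes, and 10 by limma-voom, against 9.57%. Limma-voom called 0 members and 31 of all genes, and the replicate block 0 members and 55 of all genes. The study itself reported a few differentially expressed genes between these groups. Control libraries held 2.32 to 5.30 M reads and repopulated libraries 5.21 to 6.19 M, and the part of depth was not tested. The members' median difference was 0.08, and the 95% interval lay within 1 log2 unit of 0 for 43 of the 52. Mx1 was at 4.38, 5.87 and 5.62 FPKM in the repopulated libraries and 3.61, 1.68, 1.97 and 3.28 in the controls, a difference of 0.82 ± 0.24 (adjusted p = 0.355).

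Other members of the group gave a mixed picture there. Usp18 was at 6.25, 8.93 and 7.65 FPKM against 5.49, 3.58, 5.15 and 3.72 (0.66 ± 0.21, adjusted p = 0.399), and Ifi204 at 17.8, 14.6 and 17.4 against 10.1, 6.91, 13.6 and 7.35 (0.79 ± 0.22, adjusted p = 0.349). Isg15 was at 2.93, 8.37 and 5.55 against 6.24, 3.6, 9.05 and 4.90, and Ifit3 at 8.68, 10.2 and 14.5 against 9.14, 8.39, 9.89 and 8.14, with overlap in both. The summed members were at 1301 to 1437 FPKM against 1166 to 1504. The neutrophil markers spread from 2159 to 23181 FPKM in the controls and from 1284 to 4668 in the repopulated libraries. The sums of 4 lists lay lower in the repopulated libraries without overlap, those of border macrophages (15.1 to 19.3 against 26.9 to 38.9 FPKM), endothelium (9.23 to 14.1 against 16.7 to 24.1), lymphocytes (13.7 to 17.7 against 18.6 to 49.1) and astrocytes (23 to 27.3 against 28.0 to 30.2). No marker of these lists was called, and their part was not tested.

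In SVZ tissue 32 of the 44 listed members passed the limit of 1 FPKM in 3 libraries. The 12 below it were Ifih1, Ddx60, Oas1a, Oas3, Rsad2, Trim30a, Parp14, Dtx3l, Gbp5, Iigp1, Ifi44 and Slfn5, and Mx1, Mx2, Oas2, Oasl1, Ifi204, Ifi205, Zbp1 and Slfn8 were not listed. None of the 32 was called after 14 day PLX3397 against vehicle, where 1.26% of 14151 genes were called, nor after 5 day recovery against vehicle (1.27%) or against 14 day PLX3397 (0.325%). By limma 3, 2 and 2 members had an unadjusted p under 0.05, against 6.12%, 16.6% and 16.5% of all genes. Limma-voom gave 2, 2 and 2, with 0 members called. The 95% intervals lay within 1 log2 unit of 0 for 31, 30 and 32 of the 32. On the log2(FPKM + 1) scale that limit is wide for low members, and it does not bound their fold change of FPKM. Isg20, at 0.88 FPKM in vehicle, differed by only 0.49 at 191% of vehicle in recovery.

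The members stayed near the vehicle level while the microglial markers fell. After 14 day PLX3397 the 32 members were at a median of 96.1% of the vehicle mean (51.8% to 135%), and 0 were under 50%, while the 8 microglial markers were at a median of 1.06% and 7 of them under 50%. At 5 day recovery the medians were 108.5% and 5.11%. In bulk tissue, fewer cells of a type and less RNA per cell cannot be told apart. The summed microglial markers were 229 to 320 FPKM in vehicle, 13.3 to 17 in 14 day PLX3397 and 22.8 to 32.4 in recovery. The summed astrocyte markers were higher without overlap, at 358 to 399.9 FPKM in vehicle, 456 to 533 in 14 day PLX3397 and 488 to 661 in recovery, with 1 of 5 called higher against vehicle in each, and the sums of border macrophage and monocyte markers were lower without overlap. Their part in the members' levels was not tested.

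**Figure D4:**
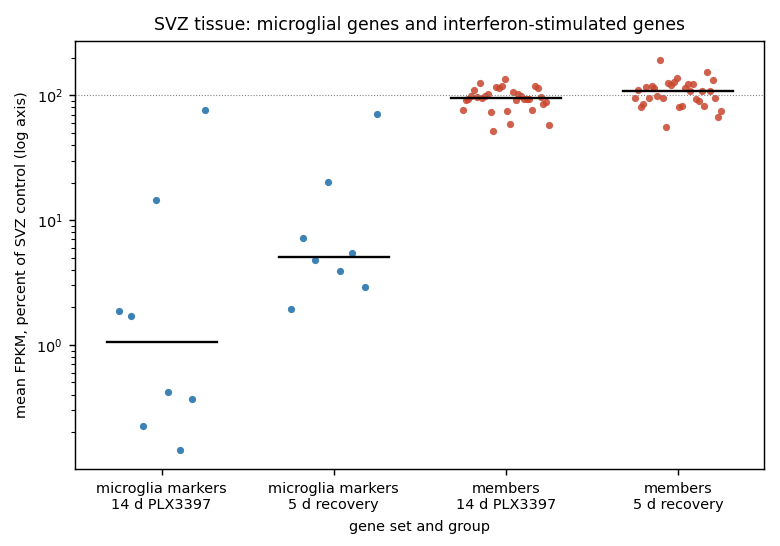
Mean level of each of the 32 tested members (red) and 8 microglial markers (blue) in SVZ tissue as a percent of the vehicle mean, on a log axis (vertical), after 14 day PLX3397 and at 5 day recovery (horizontal), with bars at the medians. The members lie around 100% in both groups and 7 of the 8 microglial markers lie under 50%.

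Single members in the SVZ had levels like these. Ifit3 was at 4.10, 3.5, 4.01, 3.11 and 3.42 FPKM in vehicle, at 5.18, 4.29, 4.28, 4.08 and 4.91 in 14 day PLX3397 and at 3.91, 3.16, 2.70, 5.54 and 6.22 in recovery. Ifitm3 was at 64.3, 41.8, 38.1, 48.5 and 38.9 in vehicle, at 48.1, 43.5, 52, 47.8 and 73.1, and at 59.6, 63.1, 53.1, 46.4 and 58.5. Stat2 was at 3.78, 4.03, 3.34, 4.40 and 4.21, at 3.92, 3.82, 3.91, 4.10 and 3.72, and at 2.83, 3.51, 4.18, 3.62 and 2.77. The groups overlapped for each of the 3 genes.

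Bst2 had the lowest share of the tested members after depletion, and that share rests on SVZ vehicle replicate 1. It was at 28.6, 6.25, 5.21, 4.04 and 5.87 FPKM in vehicle and at 5.93, 4.17, 4.55, 4.63 and 6.61 in 14 day PLX3397, a difference of -0.49 ± 0.35 (adjusted p = 0.994). SVZ vehicle replicate 1, which stood apart, was also the highest vehicle library for Lgals3bp, at 21.7 FPKM against 6.39 to 8.04. Without that library Bst2 was at 96.9 ± 19.5% of vehicle after depletion and 104.6 ± 25.9% in recovery, the members' medians were 102% and 109%, and the lowest share was that of Slfn2, at 54.9%. The counts of called members without it were 0 in both comparisons with vehicle. At the other end, Isg20 was at 191 ± 73.2% of vehicle in recovery (0.49 ± 0.15, adjusted p = 0.16).

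**Figure D5:**
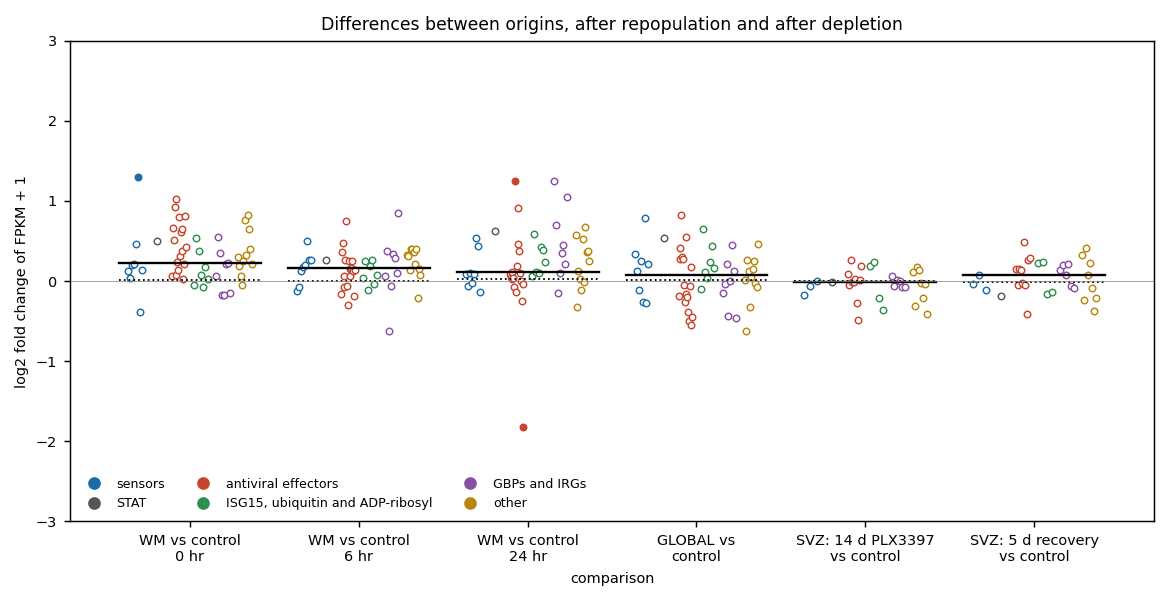
Log2 difference of FPKM + 1 (vertical axis) of each tested member, coloured by role, between origins at each time, after GLOBAL repopulation, and in SVZ tissue against vehicle (horizontal axis). Filled points mark an adjusted p under 0.05 and are those of Ifi204 at 0 hr and of Oas2 and Ifitm1 at 24 hr, and solid lines mark the members' median and dotted lines that of all tested genes.

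The pathway upstream of the members was read from 31 other genes: ligands, receptors, kinases and transcription factors, sensing adaptors and feedback genes. Of these 23 were listed and 22 tested in the LPS experiment. At 6 hr 9 were higher and 4 lower in control microglia, where 21.4% of all genes were higher and 21.1% lower, and 10 higher and 5 lower in WM cells, where 19.3% were higher and 19.5% lower. At 24 hr, 5 and 4 were higher and 0 lower, against 12.1% and 10.5% of all genes higher. No pathway gene was called between origins at any time or among 24 tested in the GLOBAL experiment.

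Irf7, the factor that amplifies type I interferon, stood at 3.75 to 13.7 FPKM in control microglia at 0 hr and at 184 to 363 at 6 hr, and at 11.8 to 17 and 222 to 426 in WM cells, a rise of 5.04 ± 0.38 and 4.34 ± 0.37. Ikbke, a kinase that activates the interferon regulatory factors, rose by 4.70 ± 0.37 and 4.01 ± 0.36. Irf9, the DNA-binding partner of STAT2, rose by 1.01 ± 0.15 and 1.01 ± 0.14. The feedback gene Socs1 rose by 1.36 ± 0.33 and 1.16 ± 0.32. Of the 4 feedback genes, 2 were called higher and 2 lower at 6 hr in control microglia. In WM cells 1 was called higher and 2 lower.

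None of the 4 tested receptors rose at 6 hr. Ifnar2, a chain of the type I receptor, fell by 0.67 ± 0.22 in control microglia and 0.75 ± 0.21 in WM cells, and Tmem173, which encodes the adaptor STING, fell by 0.93 ± 0.16 and 0.97 ± 0.16. Of the 9 ligands 1 was listed, Ifng. It went from 0.13 to 2.47 FPKM at 0 hr to 0.91 to 6.35 at 6 hr in control microglia (1.03 ± 0.47, adjusted p = 0.0778) and from 0.11 to 1.91 to 4.69 to 20.1 in WM cells (2.31 ± 0.45, adjusted p = 0.000245). The difference between these rises was not called (adjusted p = 0.7). In SVZ tissue 3 of 18 tested pathway genes, Ifngr1, Tmem173 and Ptpn6, were lower after depletion and 0 were higher, where 1.26% of all genes were called in either direction. The microglial markers were lower in the same comparison, with 7 of 8 called and a median difference of -4.18, and their part was not tested.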

How the data were processed

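RNA was sequenced from 46 libraries in 3 tables: 24 of the LPS experiment, 7 of the GLOBAL experiment and 15 of SVZ tissue. The authors deposited FPKM values per gene. Per the labels, reads were aligned to mm10 with STAR and counted with featureCounts, and edgeR and limma were used, with no versions given. The labels and the study's methods describe the library preparation differently. The values of 100% of genes were whole multiples of 1 read within 0.02 reads, so reads per library could be recovered, and depth limits the precision of low genes. Each table was normalized separately, and groups were compared only within a table.

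Samples were grouped by the labels. Genes with at least 1 FPKM in at least 3 libraries were fitted as log2(FPKM + 1) with limma 3.58.1 in R 4.3.3 (lmFit, then eBayes with a trend), with all groups of a table in 1 fit. P-values were adjusted over all genes tested (Benjamini-Hochberg), and the threshold was 0.05. A fold change on this scale understates the change of low genes. The fit was tested on simulated data. Summaries were made with Python 3.11.15, pandas 2.3.3 and numpy 2.4.6, and figures with matplotlib 3.10.9.

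The members, the pathway and marker lists and the tests were chosen with earlier results of these data known. Named genes were a set of members for each role, plus up to 4 called members with the largest difference in each direction of each comparison, and all members called in the opposite direction where there were at most 8. Alternatives were a pseudocount of 0.1, no filter on low values, quantile normalization, no trend, a replicate block, only the groups compared, and each library left out. Limma-voom on recovered reads, leaving out both LPS libraries that stood apart, and the SVZ shares without vehicle replicate 1 were chosen after seeing the data.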

Additional observations from a re-analysis of the deposited data

Results flagged for a closer look

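Among 306 groups of 4 or 5 libraries of a named member, 23 held 1 library far from the others relative to the range of the group. The limits were Dixon's 95% critical values, which chance passes in about 1 in 20 groups of independent, normally distributed values. Genes of the same library are not independent, so the 23 were not compared with that rate. In SVZ tissue 7 of the 23 were in vehicle replicate 1, which stood apart over all genes. That library was the highest of its group for Eif2ak2 at 2.39 FPKM, Bst2 at 28.6 FPKM, Trim25 at 2.87 FPKM, Irgm1 at 7.66 FPKM, Iigp1 at 0.828 FPKM and Lgals3bp at 21.7 FPKM, and the lowest for Cmpk2 at 14.8 FPKM. The 14 day PLX3397 replicate 5 held 4, the highest values of Oasl2 at 1.62 FPKM, Ifitm3 at 73.1 FPKM and Irgm1 at 5.87 FPKM and the lowest of Eif2ak2 at 1.01 FPKM. Igtp was lowest in vehicle replicate 3, at 1.40 FPKM against 2.54 to 2.99 FPKM in the other libraries.

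In the sorted cells, control 6 hr replicate 2 was the highest of its group for Ifit1 at 162 FPKM and Gbp5 at 93.2 FPKM and the lowest for Ly6e at 619 FPKM. Control 6 hr replicate 3 was the lowest for Ddx58 at 15.9 FPKM and for Isg15 at 127 FPKM, where the other libraries held 242 to 287 FPKM. Control 24 hr replicate 2 was the highest for Oas1a at 50.9 FPKM, Bst2 at 436 FPKM and Irgm1 at 89.3 FPKM. In WM cells the highest values were Ifi204 at 16.8 FPKM in 0 hr replicate 3, Isg20 at 17.2 FPKM in 0 hr replicate 2, and Parp14 at 15.9 FPKM in 24 hr replicate 2. Ifi204 at 0 hr is also the member called between origins, and its call was lost without that WM library (1.17, limma adjusted p = 0.0735).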

How the results depend on the processing

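The calls of named members kept their direction under every alternative run for them: of 2685 alternative fits of 173 named calls, 2574 stayed past the threshold, 111 lost it and 0 reversed. The counts of called members were 47 to 51 and 49 to 51 at 6 hr against 0 hr in control and WM cells, 36 to 45 and 40 to 48 at 24 hr against 0 hr, and 25 to 37 and 16 to 30 at 24 hr against 6 hr over all alternatives. With each library left out in turn they were 47 to 50, 49 to 49, 36 to 41, 40 to 45, 28 to 37 and 16 to 23, in the same order. Between origins at 0 hr the count of 1 became 2 with a pseudocount of 0.1, 2 with only the groups compared, 0 with limma-voom, and 0 to 1 with each library left out. At 24 hr the count of 2 became 1 with a pseudocount of 0.1, 0 with only the groups compared, 3 with quantile normalization, 3 without both LPS libraries that stood apart, and 1 to 2 with each library left out. The 0 hr count was 0 without control 0 hr replicate 2 or 3 or WM 0 hr replicate 3, and the 24 hr count was 1 without control 24 hr replicate 4 or WM 24 hr replicate 2 or 3. The cause was not tested. The comparisons with 0 called members gave 0 under every alternative run.

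With the replicate block the counts were 49, 42 and 33 in control cells, 49, 42 and 22 in WM cells, and 2, 0 and 3 between origins at 0, 6 and 24 hr, and 0 in the others. Same-numbered LPS libraries did not deviate together: the median correlation of 55 pairs was -0.001, and 7 were over 0.1. In the SVZ 5 of 15 pairs and in the GLOBAL experiment 2 of 3 were over 0.1. The medians there were 0.054 and 0.102, against -0.007 and -0.041 for pairs of unlike number. These values do not settle whether the numbers pair libraries in those 2 experiments. The numbers are not stated to pair mice, so the block was kept as an alternative. Depth limits the lowest members, such as Ifi44 and Iigp1.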
